A study of Arabidopsis thaliana with 2 samples.

Results

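Small heat shock proteins are chaperones built around an alpha-crystallin domain. They assemble into oligomers, bind proteins that are losing their fold without using ATP, and hold them until HSP70 and HSP100 machines refold them. Plants carry separate forms for the cytosol and for several organelles, and heat shock transcription factors switch most of these genes on in heat. In leaves that are not stressed, most of them are known for low expression.

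The members were 10 listed small heat shock genes of Arabidopsis thaliana, of which 8 had a probe set that the array annotation pairs with exactly 1 gene. These 8 were taken from 13355 genes with such a probe set. AT1G07400 and AT1G59860, both of cytosolic class I, share 1 probe set and were therefore not among the 8. In the cytosol the members were AT1G53540 (known as HSP17.6C) and AT2G29500 (HSP17.6B) of class I, AT4G21870 (HSP15.4), which is related to class I, and AT1G54050 (HSP17.4B) of class III. AT4G10250 (HSP22) belongs to the endoplasmic reticulum and AT5G37670 (HSP15.7) to the peroxisome. AT5G51440 (HSP23.5) is mitochondrial. AT1G52560 (HSP26.5) was grouped with the mitochondrion, although its sequence was first classed near the plastid form.

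The cells were mesophyll protoplasts, that is, wall-less cells of the photosynthetic leaf tissue, with no transgene or mutation named in the labels. Both samples are listed with pooled leaves of 36 soil-grown plants, so they do not stand for separate plants. Control cells lay 0.6 mm deep in a dish with 10 ml of buffer for 6 h. Hypoxia cells stood 25 mm deep in a tube with 2 ml of that buffer for 6 h, under equal light of 80 microeinstein. Each group was 1 array, so no difference below has a replicate check and no test was possible, and low oxygen cannot be told apart from the vessel or from the closer packing of the cells. The series asked which genes hypoxia switches on in mesophyll cells.

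The arrays were alike in general level, with median intensities of 345 in control against 334 in hypoxia. Intensities below are as deposited. Ratios are hypoxia over control after both arrays were brought to 1 median. A floor at an intensity of 165.7, the 40th percentile of all values, stood for background. Genes over this floor on 1 array or both are called measured, and 7971 genes were. A ratio with control at the floor is a lower bound. The mesophyll genes RCA and LHCB4.1, 2 of 6 listed markers with a usable probe set, had intensities of 21417 to 35119 in control and 38102 to 57111 in hypoxia.

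All 8 members were measured and all lay higher on the hypoxia array. For 3 of the 8, control was at the floor, so being measured fixed that direction, while the floor did not fix it for the other 5. Of the 8, 7 had at least 2-fold more signal in hypoxia and 0 had at least 2-fold less, against 13.0% of all measured genes with at least 2-fold more. The same 7 members were at least 4-fold higher, as were 2.8% of measured genes, but AT5G51440 passed this size narrowly, at 4.07-fold, and came to 2.88-fold with hybridisation control centring. At least 16-fold higher were 5 members, and 19 genes in all, or 0.238% of those measured, passed that size. With hybridisation control centring at least 3 members did, since AT2G29500 came to 13.4-fold and AT4G10250 to a lower bound of 14.0-fold. The median log2 ratio of the members, with bounds at their value, was 4.13, or 17.5-fold, beside -0.07 for all measured genes. It lies between AT2G29500 and the bound of AT4G10250, so it is itself a lower bound, and it was 4.36 with the floor at the 20th percentile. The members were chosen with earlier results of these data known, so these counts describe the 2 arrays. In bulk samples like these, fewer or more cells of a kind and less or more RNA per cell cannot be told apart.

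**Figure D1:**
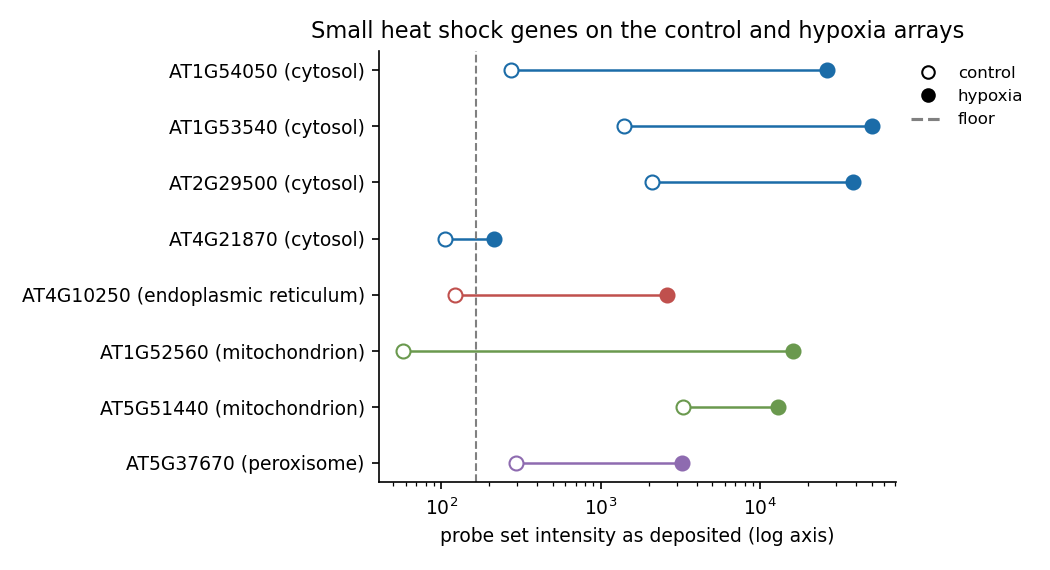
Probe set intensity as deposited, on a log axis, of the 8 small heat shock genes on the control array (open points) and the hypoxia array (filled points), coloured by compartment, with the floor of 165.7, set on the scaled values, as a dashed line. Each gene has 1 probe set, and every filled point lies to the right of its open point, by the least for AT4G21870, from 106 to 213.

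The cytosolic members differed widely among themselves. AT1G54050, of class III, had an intensity of 274 in control against 26058 in hypoxia. Its log2 ratio was 6.62, or 98.2-fold, the second highest among measured genes. Control lay a little above the floor for this gene, so the size of its ratio moved with the floor, to a bound of 5.30 when the floor stood at the 60th percentile.

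The class I members with a single-gene probe set started from clear signal in control. AT1G53540 read 1394 in control against 50596 in hypoxia, a log2 ratio of 5.23 or 37.5-fold. AT2G29500 read 2086 in control against 38354 in hypoxia, a log2 ratio of 4.25 or 19.0-fold. The highest intensity of any probe set on the hypoxia array was 90909, so neither reading was at the top of the recorded range. Moving the floor left both ratios unchanged, since both genes lay above even the 60th percentile floor of 674 on each array.

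AT4G21870 was the member with hypoxia signal nearest to the floor. Its intensity was 106 in control, under the floor, and 213 in hypoxia, just above it. The log2 ratio was at least 0.39, or at least 1.31-fold, so its true place among the other genes is not known. With the floor at the 20th percentile, an intensity of 46.3, both arrays counted as above it, and the log2 ratio was 1.05. With the floor at the 60th percentile the gene was not measured at all.

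In the endoplasmic reticulum, AT4G10250 read 122 in control against 2619 in hypoxia. Control lay under the floor, and hypoxia was at least 16.1-fold higher, a log2 ratio of at least 4.01. The bound was 1.98 with the floor at the 60th percentile. At the 20th percentile, where control counted as above the floor, the log2 ratio was 4.47. In the peroxisome, AT5G37670 read 293 in control against 3236 in hypoxia, a log2 ratio of 3.51 or 11.4-fold. Its control reading also lay near the floor, and the ratio was at least 2.29 with the floor at the 60th percentile.

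The 2 mitochondrial members differed in whether control lay above the floor. AT5G51440 was above it, at 3287 in control, and reached 12956 in hypoxia, a log2 ratio of 2.03 or 4.07-fold. AT1G52560 read 57.5 in control, far under the floor, and 16113 in hypoxia, so hypoxia was at least 98.9-fold higher and the log2 ratio at least 6.63. With the floor at the 20th percentile control counted as above it, and the log2 ratio was 8.18, or 289-fold. No detection calls were used here, so whether control carried any AT1G52560 transcript was not settled.

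Readings of different probe sets depend on their probes, so intensities were not ranked between members, and the ratios alone were put in order. Genes with 2 probe sets gave the measure of probe error. Over 74 such genes above the floor on both arrays, the ratio of 1 probe set had an SD of 0.35, and a difference between 2 ratios an SD of 0.49, where 2 SD come to 0.98. This SD leaves out any difference between cultures, extractions or arrays. A probe set passed 2-fold in only 17 of the 74 genes. In 7 of these both probe sets passed it in the same direction, and in 10 only 1 did.

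From the top, AT1G52560 at 6.63 or more and AT1G54050 at 6.62 were followed by AT1G53540, 1.39 lower than AT1G54050, a gap beyond 2 SD. The size of that gap rests on a control reading of AT1G54050 near the floor. With the floor at the 60th percentile AT1G54050 was a bound of 5.30, beside 5.23 for AT1G53540. The gap of 0.98 between AT1G53540 and AT2G29500 stood right at 2 SD. AT2G29500, AT4G10250 and AT5G37670, that is, a cytosolic, an endoplasmic reticulum and a peroxisomal member, followed each other by 0.24 and 0.50, within 2 SD, and AT4G10250, being a bound, could stand higher. AT5G51440 lay 1.49 below AT5G37670, beyond 2 SD, but with the floor at the 60th percentile AT5G37670 was a bound of 2.29, beside 2.03. Compartments did not separate in this order. The cytosolic ratios ran from at least 0.39 to 6.62, and those of the 4 organelle members from 2.03 to at least 6.63.

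**Figure D2:**
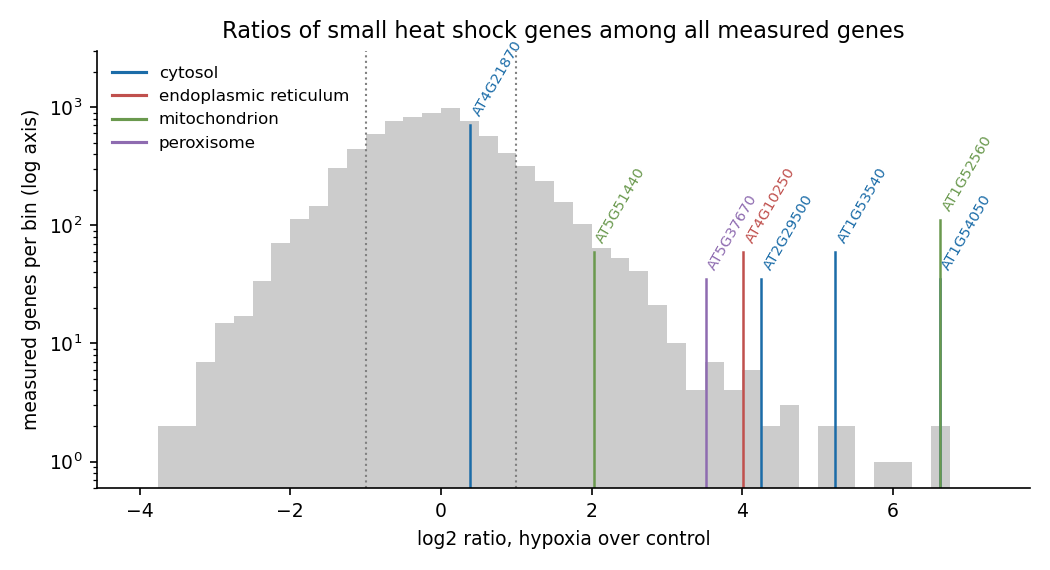
Histogram of the log2 ratio of hypoxia over control for 7971 measured genes, with the number of genes on a log axis, and the 8 small heat shock genes as lines coloured by compartment. Dotted lines mark 2-fold in each direction; 6 members are among the 30 highest ratios, AT5G51440 stands at 2.03 and AT4G21870 is drawn at its bound of 0.39. Ratios of AT1G52560, AT4G10250 and AT4G21870 are lower bounds.

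Genes at the floor in control were also looked at by themselves. They included 3 of the 8 members and 936 measured genes, or 11.7%. Among those 936 genes, 20.6% passed 2-fold toward hypoxia and 0.641% passed 16-fold. Among the 6648 genes above the floor on both arrays, 12.7% passed 2-fold toward hypoxia and 0.196% passed 16-fold. The 5 members above the floor on both arrays were all at least 2-fold higher, with a median log2 ratio of 4.25.

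Under the 5 other scalings of the arrays, the same 7 members stayed at least 2-fold higher. The bound of AT4G21870 stayed between 0.19 and 0.54, so its side of the 2-fold line is not known. Other scalings gave AT5G51440, the lowest of the 7, a log2 ratio between 1.52 and 2.43, and AT1G54050 one between 6.12 and 7.03. Centring on 4 reference genes moved the median log2 ratio of all genes from -0.07 to 0.26, and centring on 18 hybridisation control probe sets moved it to -0.55. Under the second of these, 6.67% of measured genes and 7 of the 8 members passed 2-fold toward hypoxia.

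**Figure D3:**
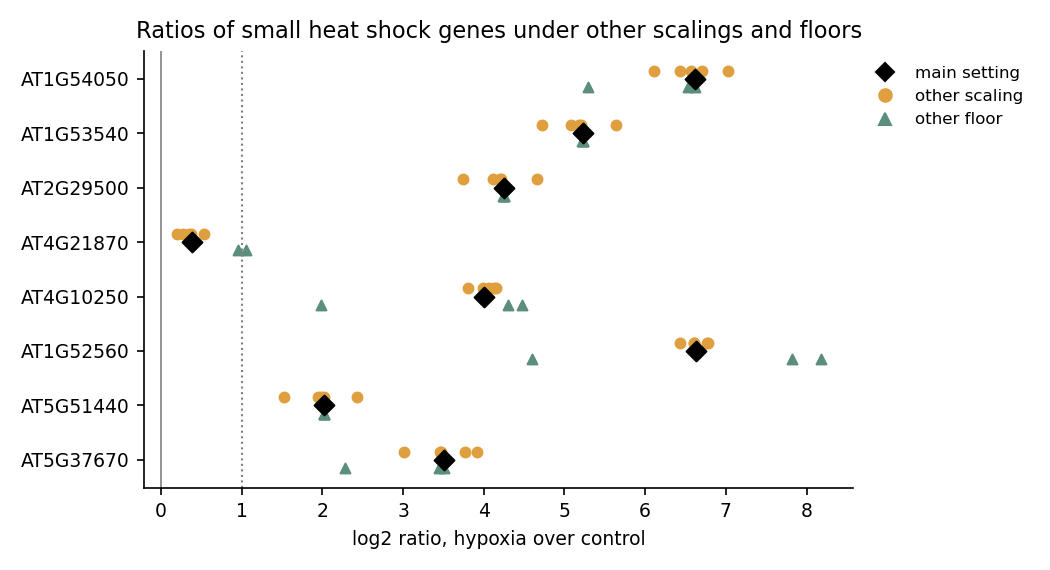
Log2 ratio of hypoxia over control for each of the 8 small heat shock genes in the main setting (diamonds), under 5 other scalings (circles) and under other treatments of the floor (triangles). The dotted line marks 2-fold. Every point lies above 0, a sign that is fixed where control was at the floor. Floors move AT1G52560 the most, from 4.60 to 8.18, and AT4G21870 passes 2-fold only with the floor at the 20th percentile.

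Further genes with an alpha-crystallin domain were mostly near or under the floor. Of 18 listed, 7 had a usable probe set and 5 were measured, of which 1 passed 2-fold upward and 1 downward, beside 14.5% of measured genes that passed it downward. The upward count rested on the floor: it was 4 of 5 under a 20th percentile floor and 3 of 5 with 16 added to each value instead. The share of all measured genes past 2-fold upward rose as well, from 13.0% to 20.2% under the 20th percentile floor. With 16 added it lay between these shares. AT2G19310, which is related to the cytosolic class I proteins, read 4445 in control against 10811 in hypoxia, a log2 ratio of 1.33, which went to 0.83 with hybridisation control centring. AT5G02480 read 6757 in control against 3239 in hypoxia, a log2 ratio of -1.01, which came within 2-fold with loess at -0.99 and with reference gene centring at -0.60. AT1G20870, AT5G54660 and AT2G27140 were at the floor in control and reached 301, 185 and 163, so being measured fixed their direction. Their log2 ratios were at least 0.89, 0.18 and 0.00. The last of these bounds was set by a reading next to the floor, and it was at least 1.84 with the floor at the 20th percentile. The cytosolic class I genes AT3G46230 and AT5G59720 had no single-gene probe set here, so class I was read only in part. The genes of cytosolic class II, HSP21 of the plastid and the mitochondrial HSP23.6 had none either. None of these genes were analysed here.

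The partners of small heat shock proteins were covered thinly. Of 17 listed HSP70 and HSP100 genes, 2 were measured, both HSP70 genes of the cytosol. AT3G09440 read 44520 in control against 76042 in hypoxia, a log2 ratio of 0.82, and passed 2-fold with reference gene centring at 1.23. Hsp70-2 read 5813 in control against 6837 in hypoxia, a log2 ratio of 0.28. Members of the HSP90 family (7 listed), heat shock factors (21 listed), 2 listed regulators of those factors and 9 listed mitochondrial folding genes had 0 single-gene probe sets and were not analysed here.

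Among 8 listed genes that heat is known to induce, 5 were measured and all 5 were at least 14.8-fold higher. Over all measured genes, 2.8% passed 4-fold upward and 0.238% passed 16-fold. AT1G71000 and AT2G20560, which encode DnaJ-type co-chaperones, had log2 ratios of 5.33 and 4.55. AT5G48570, a peptidyl-prolyl isomerase gene, stood at 5.08 and Hop3, which links HSP70 to HSP90, at 4.38. HSA32, a gene of lasting heat tolerance, was at the floor in control, read 2410 in hypoxia and was at least 14.8-fold higher. The list was chosen with earlier results of these data known, so no gene on it is independent of the members. Both the DnaJ-type genes and Hop3 entered it because those results showed them.

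Few other genes of the compartments that hold the organelle members could be read. In the endoplasmic reticulum, the home of AT4G10250, 4 of 15 listed folding genes were measured, of which 0 passed 2-fold upward and 2 downward. Over all measured genes, 13.0% passed it upward and 14.5% downward. AT5G07340, a calnexin gene, read 3165 in control against 1000.4 in hypoxia, a log2 ratio of -1.61. ATERDJ3B, a DnaJ-type partner of the lumenal HSP70, had -1.08, and CRT1b, a calreticulin gene, -0.94. BZIP60, a transcription factor gene of the unfolded protein response, had 0.22. With reference gene centring only AT5G07340 of these 4 remained at least 2-fold lower, and with quantile normalization or hybridisation control centring CRT1b passed 2-fold as well. Of 14 listed peroxisome genes 1 was measured, HPR, a photorespiratory enzyme gene, which read 9303 in control against 25186 in hypoxia, a log2 ratio of 1.48. That ratio came within 2-fold with hybridisation control centring, at 0.98.

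**Figure D4:**
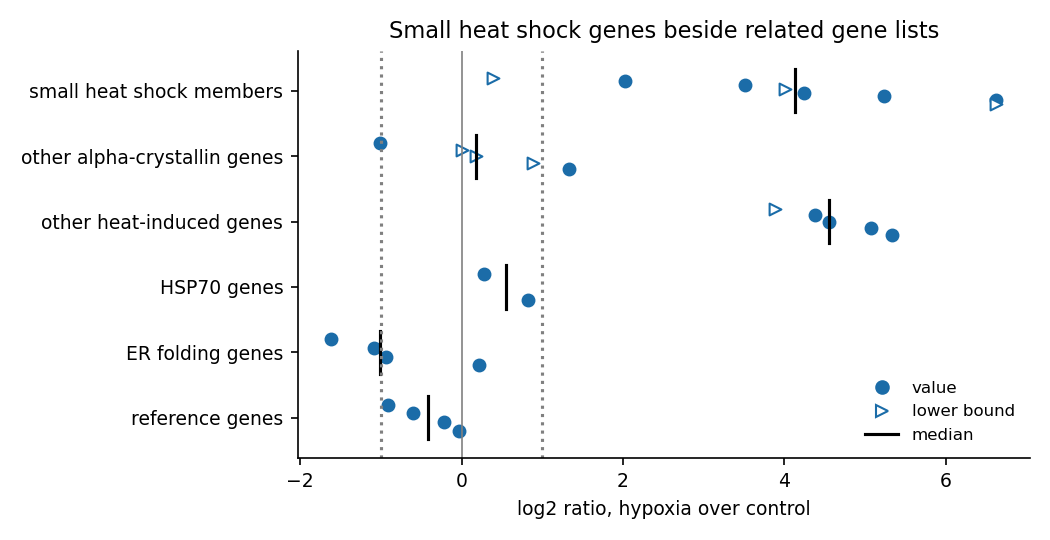
Log2 ratio of hypoxia over control for every measured gene of the small heat shock members and of 5 related lists, with lower bounds as open triangles and list medians as vertical bars. Dotted lines mark 2-fold in each direction. The members' median was 4.13 and that of the other heat-induced genes 4.55. Other alpha-crystallin genes had 0.18, a bound that becomes 1.25 under a 20th percentile floor and 1.15 with 16 added. HSP70 genes had 0.55, and folding genes of the endoplasmic reticulum (ER) had -1.01. The DnaJ-type genes and Hop3 entered the heat-induced list because earlier results of these data showed them. The median of that list is the ratio of AT2G20560, a DnaJ-type gene, so its height was known beforehand.

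The genes most like the members in ratio were the 5 non-members, above the floor on both arrays, whose log2 ratio lay nearest to the members' median over this 1 pair of arrays. Hop3 stood at 4.38, ZCF37 and AT1G14200, which encodes a RING finger protein, both at 4.02, AT2G20670 at 3.98 and AT2G21630 at 3.92.

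Markers of other leaf cells were mostly without a usable probe set. Of 4 guard cell markers 2 had a usable probe set, with a summed intensity of 328 in control against 503 in hypoxia. FMA read 295 in control against 328 in hypoxia. AT1G22690 (known as GC1) was under the floor at 32.9 in control and read 175 in hypoxia, a log2 ratio of at least 0.11, or at least 1.94 under a 20th percentile floor. Of 4 phloem markers, SWEET11 alone had one, at 212 in control against 1020 in hypoxia and a log2 ratio of 2.31, and none of 4 epidermis markers did. No marker was at 0, and the part of other cells in the members' ratios was not tested.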

How the data were processed

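Per the labels' protocols, biotin-labelled RNA of the 2 protoplast samples was hybridised to Affymetrix arrays. The authors deposited 1 linear intensity per probe set and array. Per the submitters' processing notes GCOS 1.0 was used, with settings and build not given in the sources used here. The deposited columns share a mean of 1500.1 once the outer 2% at each end are left out, so each array had been scaled as a whole.

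Of 22810 probe sets, 64 manufacturer's controls were left out, 13513 were paired with 1 gene by the platform annotation, 503 with several and 8730 with none there. Loci came through Entrez identifiers from RefSeq genes of TAIR10.1. Both arrays were brought to the geometric mean of their medians, values under the 40th percentile were set to it, and log2 ratios were taken with Python 3.11.15, pandas 2.3.3 and statsmodels 0.14.6. For genes with several probe sets the brightest was used; each of the 8 members had 1, whose name carries no mark of shared probes. The other scalings and floors were run on simulated arrays with known ratios, scored for genes above the floor on both arrays. Bounds and the centrings on reference genes and on hybridisation control probe sets were not checked in this way. With 1 array per group no test was possible, and the number of arrays limits the precision.

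Members and lists were chosen with earlier results of these data known. The text names every member with a single-gene probe set, up to 4 genes with the largest ratio in each list (others were named after their values were seen), and the 5 genes nearest in ratio. Promoter and protein sequences were not used here. Alternatives changed the scaling, the floor, the probe set rule or the fold.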

Additional observations from a re-analysis of the deposited data

Results flagged for a closer look

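A signal stood in a probe set outside the comparisons. The probe set that the annotation pairs with both AT1G07400 and AT1G59860, cytosolic class I genes on the list, read 3557 in control against 47221 in hypoxia, a log2 ratio of 3.78 or 13.7-fold. The reading cannot be assigned to either gene, and which of them carried it was not tested.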

How the results depend on the processing

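The count of members at least 2-fold higher was 7 in the main setting and 7 or 8 under the 9 alternatives run, and 7 members were also at least 4-fold higher. That 4-fold count was 6 under 4 alternatives: AT5G51440 came to 3.94-fold as deposited, 3.86-fold with quantile normalization and 2.88-fold with hybridisation control centring, and the bound of AT4G10250 to 3.95-fold under a 60th percentile floor. The count past 16-fold, 5, was 4 as deposited and under a 60th percentile floor, and 3 with hybridisation control centring. In each of these the lower bound of AT4G10250 fell under 16-fold, so that gene could still pass it. Their median log2 ratio, 4.13, went to 3.78 with centring on the hybridisation control probe sets, all 18 of which were higher on the hypoxia array, and stayed within the probe set SD of 0.35 under the other alternatives. Restricting to the 5 members above the floor on both arrays, an alternative added after seeing the data, gave 4.25. Of 71 values of single members under alternatives, 19 moved by more than that SD. All 46 values with both arrays above the floor were above 0, while a control reading at the floor fixes the sign of the rest. Averaging probe sets could not change members with 1 probe set. No paired analysis was possible because each group had 1 array, and for the same reason no array could be left out. The floor sets the size of the ratio for AT1G52560, AT4G10250, AT4G21870, AT1G54050 and AT5G37670, whose control readings lay under or near it.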

Other observations

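The genes directly beside the members on their chromosomes, a set chosen after the members' values were seen, had log2 ratios from -1.25 to 0.97 where measured. By the gene order of the RefSeq table, the 8 members have 16 immediate neighbours, of which 7 had a single-gene probe set and 5 were measured. Toward hypoxia 0 of the 5 passed 2-fold, and 1 passed it the other way, beside 13.0% and 14.5% of all measured genes. AT1G53530, beside AT1G53540, had a log2 ratio of -1.25, which came within 2-fold with reference gene centring at -0.84. With the floor at the 60th percentile it was a bound of -0.23. AT1G52550, beside AT1G52560, had -0.78, which passed 2-fold with hybridisation control centring at -1.28. ARLA1A, beside AT5G37670, had -0.41, and AT2G29510, beside AT2G29500, had 0.13. AT4G21865, beside AT4G21870, read 420 in control against 794 in hypoxia, a log2 ratio of 0.97, which was past 2-fold with reference gene centring, quantile normalization and loess.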
